A study of Rattus norvegicus with 6 samples.

Results

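The aryl hydrocarbon receptor (AHR) pathway and the CYP1 enzymes it controls were examined in rat hippocampus through 9 genes, chosen by symbol: Ahr, Arnt, Arnt2, Ahrr, Tiparp, Cyp1a1, Cyp1a2, Cyp1b1 and Nqo1. All 9 were found among the 35362 symbols of the mRNA table. The treated libraries came from Sprague-Dawley hippocampus after the polycyclic aromatic hydrocarbon benzo[a]pyrene (B[a]P), dissolved in corn oil, at 2.0 mg/kg by gavage each day for 7 weeks, and the control libraries from hippocampus after the same volume of corn oil. The 7 weeks of gavage stand in the labels of the RNA-seq libraries, and 7 weeks of age in those of all 6 libraries. Each condition had 1 library each for RNA-seq, miRNA-seq and bisulfite sequencing, of which the last was not used here, and the labels do not give the number of animals behind a library. The values below therefore compare 2 libraries and have no replicate check, and no p-value was computed.

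AHR is a ligand-activated transcription factor of the bHLH-PAS family that rests in the cytosol with the chaperone HSP90. A ligand such as B[a]P moves it to the nucleus, where it pairs with ARNT or ARNT2 and binds DNA at response elements with the core GCGTG. Its classical targets include the monooxygenase genes Cyp1a1, Cyp1a2 and Cyp1b1, whose products oxidise B[a]P to reactive metabolites, the quinone reductase gene Nqo1, and the genes of its own repressors, Ahrr and Tiparp.

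The start sites of these genes were examined first, because the core motif is the letter sequence by which the receptor is known to act. The RefSeq promoter table (build GRCr8) matched 8 members. Cyp1a1 was not matched. In the 250 bases upstream of the start site, GCGTG was searched on both strands, where it reads CACGC on the opposite one, and the occurrences in the members did not overlap. It was present in 5 of the 8 members, namely Ahrr, Cyp1b1, Tiparp, Nqo1 and Arnt, and not in Ahr, Arnt2 or Cyp1a2. Of all 33469 promoters, 25.9% held it at least once, 8.12% held it 2 or more times and 2.58% held it 3 or more times. Ahrr held 3 copies and Cyp1b1 held 2. The longer form TNGCGTG occurred in 4.09% of all promoters and once each in Ahrr and Cyp1b1. A match describes the letters of the window and is not a measured binding site. Sequence outside the window was not searched, so a gene without a match here, such as Cyp1a2, may hold the motif elsewhere. The 160 bases upstream of the start site follow for the 4 target genes with a match, 5′ to 3′ on the strand of the gene, with the core motif in capitals. They lie at chr1:30822059-30822218 on the plus strand (Ahrr), chr6:21094405-21094564 on the plus strand (Cyp1b1), chr2:152063609-152063768 on the plus strand (Tiparp) and chr19:52220268-52220427 on the minus strand (Nqo1).
Ahrr: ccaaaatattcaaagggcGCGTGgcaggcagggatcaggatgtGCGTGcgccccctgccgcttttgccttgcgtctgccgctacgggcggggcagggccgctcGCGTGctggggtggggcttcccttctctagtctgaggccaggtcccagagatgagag
Cyp1b1: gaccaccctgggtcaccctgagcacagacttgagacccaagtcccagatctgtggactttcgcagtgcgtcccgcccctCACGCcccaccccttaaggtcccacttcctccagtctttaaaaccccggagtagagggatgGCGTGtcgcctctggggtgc
Tiparp: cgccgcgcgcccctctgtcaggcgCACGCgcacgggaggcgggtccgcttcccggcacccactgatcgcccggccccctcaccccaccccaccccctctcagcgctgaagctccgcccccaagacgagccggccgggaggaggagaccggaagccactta
Nqo1: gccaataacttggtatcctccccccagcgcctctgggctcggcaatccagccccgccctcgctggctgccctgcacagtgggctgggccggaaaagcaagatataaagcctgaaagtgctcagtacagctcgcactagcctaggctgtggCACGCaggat

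**Figure D1:**
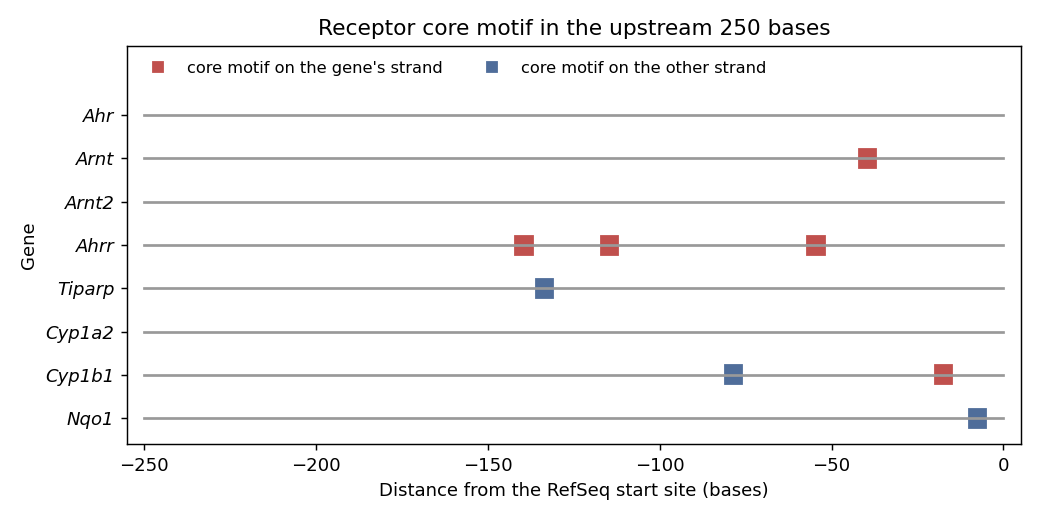
Positions of the core motif in the 250 bases upstream of the RefSeq start site (x axis, distance in bases) for the 8 members with a promoter entry (y axis). Red marks the strand of the gene and blue the opposite strand. The 3 copies of Ahrr lie between 142 and 53 bases before the start, and those of Cyp1b1 begin at 81 and 20 bases before it.

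Levels were deposited without a stated unit and behaved as FPKM, that is, reads scaled by transcript length and library total. The values keep the whole reads behind them. Of 3848 symbols under 0.05 FPKM and above 0 in both libraries, 99.8% lay on a ratio of whole numbers up to 50 after 1 correction for depth. Short genes then gave a total of 87.7 M counted reads after B[a]P and 92.9 M after corn oil. For each member, the smallest pair of whole numbers that gave both values and a whole-number transcript length was taken. A multiple of the pair can give the same values, so the true reads may be more and the 95% intervals narrower than printed. Taking the smallest pair keeps it at or below the true reads wherever the true pair fits the values. In simulated tables this held for 100% of genes with under 2000 reads in both libraries together and for 98.7% above that. The latter is the class of Arnt and Arnt2, where the pair was exact for 39% of genes. A gene without any pair counted against these shares. The tables were simulated with whole reads and whole lengths, so they do not test those conditions in the data. The whole lengths rest on the library total. Without that condition the ratios of Arnt, Arnt2, Tiparp, Cyp1a1 and Nqo1 allow fewer reads, at lengths that are not whole, and the intervals of Arnt (0.998 to 1.20) and Nqo1 (0.735 to 1.02) would then contain 1. The intervals are exact and describe counting error alone. PCR copies are not independent molecules.

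Both libraries carried the markers of hippocampal tissue. Neuron markers summed to 1900 FPKM after B[a]P and 1654 FPKM after corn oil, and hippocampal neuron markers to 333.6 FPKM after B[a]P and 313.8 FPKM after corn oil. Eno2, a listed neuron marker, was at only 0.0865 FPKM after B[a]P and 0.0817 FPKM after corn oil, far below the other neuron markers. The reason was not tested. The low values of Cyp1a1, Cyp1a2 and Ahrr may likewise fall short of the true level. Choroid plexus markers set the libraries apart: all 18 at 1 FPKM or more were lower after B[a]P (median log2 ratio -2.71), and the 20 listed summed to 97.6 FPKM after B[a]P against 3635 FPKM after corn oil. None of them was at 0, and Ttr, the highest, was at 60.5 FPKM after B[a]P and 3300.2 FPKM after corn oil. Of all genes at 1 FPKM or more, 74.5% were higher after B[a]P. Beside that share, neuron markers were higher for 11 of 11 genes and hippocampal neuron markers for 7 of 11. Astrocyte markers were higher for 9 of 10 (1593 FPKM after B[a]P and 1381 FPKM after corn oil). Oligodendrocyte markers were lower for 10 of 11 genes (1916 FPKM after B[a]P and 2202 FPKM after corn oil). Of 19 endothelial, mural and meningeal markers at 1 FPKM or more, 2 were over 2-fold lower after B[a]P, and the 23 found summed to 149.5 FPKM after B[a]P against 175.3 FPKM after corn oil. The part of these cell types in the member values was not tested. In bulk tissue, fewer cells of a type and less RNA per cell cannot be told apart.

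The receptor and its partners were detected at low to moderate levels that differed little between the libraries. Ahr, the receptor, was at 1.99 FPKM after B[a]P and 1.74 FPKM after corn oil, from a smallest pair of 449 B[a]P and 417 control reads. Its ratio of 1.14 (95% interval 0.996 to 1.31) was not told apart from 1 by counting at these read numbers. Arnt, the broadly expressed partner, was at 3.73 FPKM after B[a]P and 3.40 FPKM after corn oil, from a smallest pair of 1086 B[a]P and 1051 control reads, a ratio of 1.09 (1.005 to 1.19, the lower end just above 1 at this pair). Arnt2, the partner that predominates in neural tissue, was at 10.96 FPKM after B[a]P and 9.99 FPKM after corn oil, from a smallest pair of 1681 B[a]P and 1624 control reads, a ratio of 1.10 (1.02 to 1.17). All 3 were thus slightly higher after B[a]P, and the median gene of their ranges of level was higher by about as much. That median ratio was 1.07 for genes of mean level 1 to 2 FPKM, 1.07 for 2 to 4 FPKM and 1.08 for 8 to 16 FPKM, and each of the 3 intervals contains it.

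The proportions among these genes were close in the libraries. Arnt2 was 2.94 times the level of Arnt after B[a]P and 2.93 times after corn oil, so that it made up 74.6% of the summed level of both partners in each. Arnt was 1.87 times the level of Ahr after B[a]P and 1.95 times after corn oil. Arnt2 was 5.50 times the level of Ahr after B[a]P and 5.73 times after corn oil, which places the receptor below either partner in both.

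**Figure D2:**
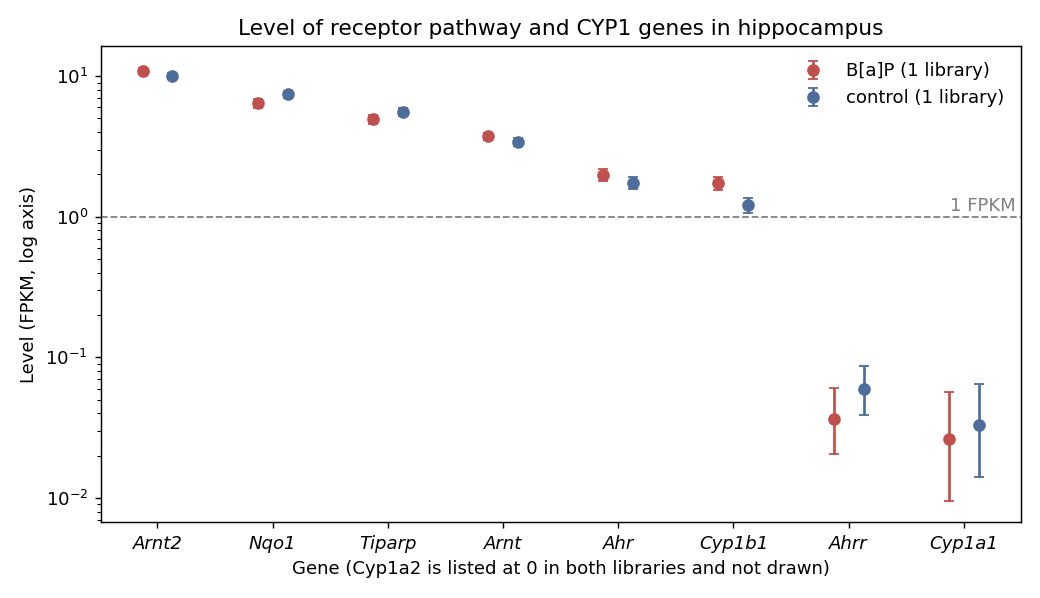
Level of 8 members in FPKM (y axis, log scale) in the B[a]P library (red) and the control library (blue), with exact 95% Poisson intervals from the smallest possible number of reads. Genes (x axis) run from Arnt2, at 10.96 (B[a]P) and 9.99 (control) FPKM, to Cyp1a1, at 0.0261 (B[a]P) and 0.0329 (control) FPKM, in the same order in both libraries.

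The genes of the receptor's repressors were not higher after B[a]P. Ahrr, which competes with AHR for ARNT, was at 0.0364 FPKM after B[a]P and 0.0596 FPKM after corn oil. These values correspond to a smallest pair of 15 B[a]P and 26 control reads, and the ratio of 0.611 had an interval of 0.301 to 1.20, which contains 1. Tiparp, which encodes an ADP-ribosyltransferase that inactivates AHR, was at 4.92 FPKM after B[a]P and 5.58 FPKM after corn oil, from a smallest pair of 827 B[a]P and 994 control reads. Its ratio of 0.881 (0.803 to 0.968) lay below 1 and below the median ratio of 1.07 of the 2855 genes between 4 and 8 FPKM. Of those genes, 6.69% had a lower ratio than Tiparp, so the gene was on the low side of its range of level and inside the central 95% of 0.778 to 1.35. Relative to Ahr, Tiparp was 2.47 times as high after B[a]P and 3.20 times after corn oil.

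The 3 CYP1 genes had very different levels. Cyp1a1, the target on which exposure to such hydrocarbons is most often read, was at 0.0261 FPKM after B[a]P and 0.0329 FPKM after corn oil. The ratio of these values alone allows 3 reads after B[a]P and 4 after corn oil, but these would need a transcript of 1310.5 bases, and the smallest whole length, 2621 bases, gives 6 reads after B[a]P and 8 after corn oil. The ratio was 0.795, with an interval of 0.227 to 2.61. Cyp1a2, its close relative, was listed at 0 in both libraries. A count of 0 allows up to 3 reads, which for a transcript of 1000 bases would be 0.0342 FPKM after B[a]P and 0.0323 FPKM after corn oil, and less for a longer one. How reads shared by such paralogues were assigned was not given, so the values of Cyp1a1 and Cyp1a2 are uncertain in that respect. Cyp1b1, the CYP1 gene of extrahepatic tissues and of vessel walls, was at 1.73 FPKM after B[a]P and 1.20 FPKM after corn oil, from a smallest pair of 353 B[a]P and 260 control reads. Within a library its level was 66.4 times that of Cyp1a1 after B[a]P and 36.7 times after corn oil.

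Cyp1b1 had the highest ratio of the 8 members above 0, at 1.44 (1.22 to 1.69), and its interval lay above both 1 and the median ratio of 1.07 of the 1843 genes between 1 and 2 FPKM. Of these genes, 7.92% had a higher ratio, and the central 95% ran from 0.511 to 1.67. The difference was thus larger than counting error and within the spread that genes of its level showed between the libraries. On the scale of log2(FPKM + 1) it was 0.31. The endothelial, mural and meningeal list, which pools vessel and meningeal genes, had a median log2 ratio of -0.06, with 7 genes above 0 and 12 below. Its range was -1.84 to 0.31. Myh11, the smooth muscle myosin gene at the top of that range, was at 3.58 FPKM after B[a]P and 2.69 FPKM after corn oil. Acta2 and Tagln, smooth muscle genes of the same list, had log2 ratios of 0.06 and -0.06. Whether vessel cells had a part in the Cyp1b1 difference was not tested.

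Nqo1, which answers both AHR and the oxidative stress factor NRF2, was at 6.42 FPKM after B[a]P and 7.41 FPKM after corn oil. The smallest pair with a whole length was 819 B[a]P and 1002 control reads, and the ratio alone allows 273 B[a]P and 334 control reads. Its ratio of 0.866 (0.789 to 0.951) was, at the larger pair, below 1 and below the median ratio of its range of level, where 5.74% of the 2855 genes had a lower one. Nfe2l2, the gene of NRF2 and itself reported as an AHR target, was at 5.12 FPKM after B[a]P against 5.98 FPKM after corn oil (ratio 0.856, 0.801 to 0.915).

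**Figure D3:**
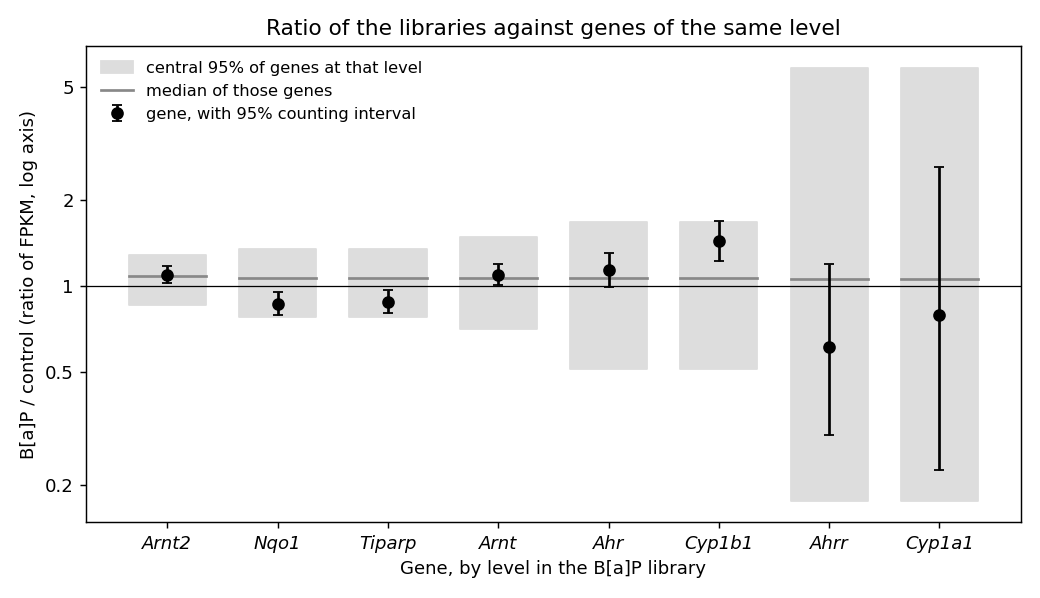
B[a]P over control ratio (y axis, log scale) of 8 members (points) with exact 95% counting intervals. Grey boxes give the central 95% of all genes in the same range of mean level, with their median as a line. Every point lies inside its box, Cyp1b1 at 1.44 and Ahrr at 0.611 being the farthest from 1.

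Taken as a list, 6 of the 9 members reached 1 FPKM in either library, and those that did not were Cyp1a1, Cyp1a2 and Ahrr. None of the 6 reached 1.5-fold in either direction on the scale of log2(FPKM + 1), where 1.79% of 13261 genes did so, and none reached 2-fold, as 0.671% did. With such shares of all genes, 0 of 6 is no result about the members. Their median log2 ratio was 0.11, with 4 values above 0 and 2 below, and the median over all genes was 0.09.

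The order of levels was the same in both libraries, namely Arnt2, Nqo1, Tiparp, Arnt, Ahr, Cyp1b1, Ahrr and Cyp1a1 from high to low. Counting intervals of neighbours overlapped for Ahrr and Cyp1a1 in each library. Ahr (1.81 to 2.18 FPKM) and Cyp1b1 (1.56 to 1.92 FPKM) also overlapped after B[a]P. In the control library their intervals of 1.58 to 1.92 and 1.06 to 1.36 FPKM did not. By level, Arnt2 stood above 86.6% of all symbols after B[a]P and 86.3% after corn oil, and Cyp1a1 above 34.0% after B[a]P and 36.0% after corn oil. Genes of another tissue gave a scale for such low values. Of 12 liver genes listed, 10 were under 1 FPKM, from 0 up to 0.371 FPKM for Serpina1 after corn oil, and the fibrinogen gene Fgg was at 0.0308 FPKM after B[a]P and 0.0630 FPKM after corn oil. Cyp1a1 and Ahrr were within that range. Above it were Alb, the albumin gene (2.35 FPKM after B[a]P and 1.73 FPKM after corn oil), and Ttr, the thyroid hormone carrier gene, which choroid plexus also expresses.

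The smallest difference that the values could show was computed from the reads of the control library, as the first ratio whose counting interval leaves out 1. For Cyp1a1, whose control value came from 8 reads, 19 reads or more were needed after B[a]P, which is 0.0827 FPKM and a ratio of 2.52. A lower Cyp1a1 would have needed 1 read or fewer, a ratio of 0.132. At these read numbers, an increase of Cyp1a1 by under 2.52-fold was not detectable. For Ahrr the limits were a ratio of 1.71 upward, with 42 reads, and 0.448 downward, with 11 reads. For Cyp1b1 and Ahr they were 1.19 and 1.15 upward. For Arnt, Tiparp and Nqo1 the upward limit was 1.09, and for Arnt2 1.07. These limits hold for counting alone. Genes of the same level differed between these libraries by more, with a central 95% of 0.177 to 5.83 for 5301 genes between 0.01 and 0.1 FPKM and of 0.707 to 1.49 for 2378 genes between 2 and 4 FPKM. Without replicates, how much of that spread lies between animals, tissue pieces or libraries cannot be told apart.

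**Figure D4:**
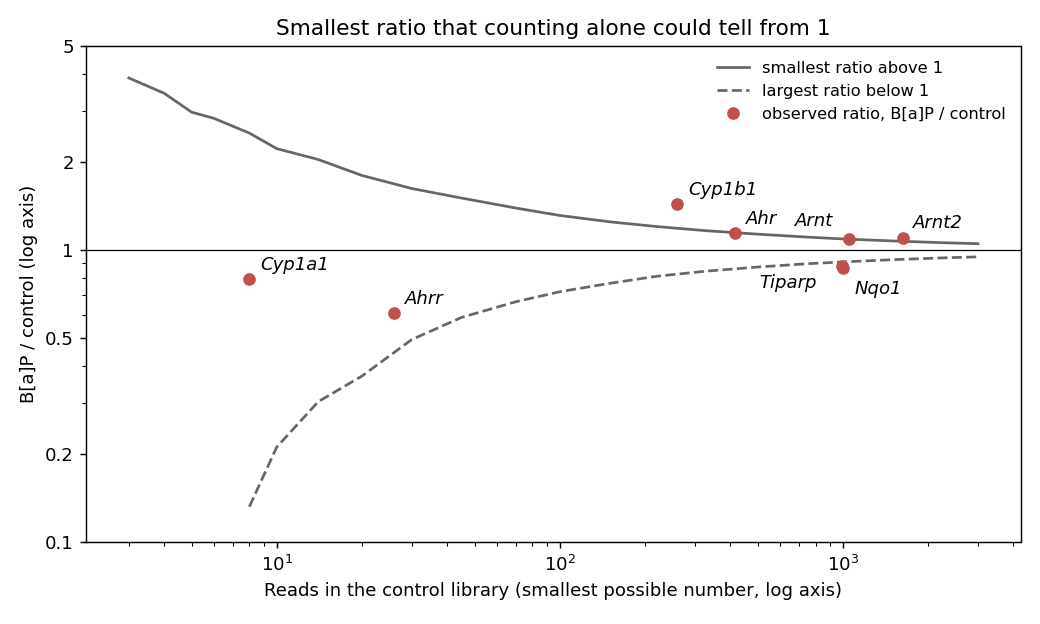
Smallest ratio above 1 (solid line) and largest ratio below 1 (dashed line) that counting alone could tell from 1 (y axis, log scale), by the reads of the control library (x axis, log scale), with the observed ratio of 8 members. Cyp1a1, Ahrr and Ahr lie between the lines, Ahr just under the upper one, and Cyp1b1 at 1.44 lies above the upper one.

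Genes that work with the receptor were described from 6 lists, which together held 66 genes at 1 FPKM or more. Of these, 36 had a log2 ratio above 0, 1 was past 1.5-fold on the high side and 1 on the low side on the scale of log2(FPKM + 1), where 1.79% of all genes were past it, and their median log2 ratio was 0.03. With a pseudocount of 0.1, 4 were past it, Fos and Gstm2 in addition to Ephx2 and Gsta4. Over all 13261 genes, 74.5% had a ratio above 0.

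The chaperones and adaptors that hold AHR in the cytosol differed little. None of 7 reached 1.5-fold, which is no result about so few genes when 1.79% of all genes did. Their median log2 ratio was 0.04. Hsp90ab1, an HSP90 gene and the most abundant, was at 434 FPKM after B[a]P and 407 FPKM after corn oil. Ptges3, which encodes the HSP90 partner p23, was at 56.2 FPKM after B[a]P and 49.9 FPKM after corn oil. Hsp90aa1, the inducible HSP90 gene, was at 6.06 FPKM after B[a]P and 6.89 FPKM after corn oil. None of these differed by as much as Cyp1b1.

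Coactivators and corepressors were mostly slightly higher after B[a]P. Of 13 genes, 11 had a log2 ratio above 0, as 74.5% of all genes did, and the median of 0.09 equalled that of all genes. None reached 1.5-fold, beside 1.79% of all genes that did. Smarca4, the chromatin remodelling ATPase gene, had the highest level and the largest ratio (24.8 FPKM after B[a]P and 19.8 FPKM after corn oil, ratio 1.25, 1.19 to 1.32). Med1, a Mediator subunit gene, was at 6.70 FPKM after B[a]P and 5.69 FPKM after corn oil, and Ncor1, a corepressor gene, at 17.1 FPKM after B[a]P and 14.8 FPKM after corn oil. Among the other bHLH-PAS genes the median was 0.10 over 10 genes. Npas1, a factor of interneurons, was at 6.56 FPKM after B[a]P and 5.24 FPKM after corn oil, Npas2, a clock factor gene, at 2.39 FPKM after B[a]P and 2.04 FPKM after corn oil, and the coactivator gene Ncoa1, the most abundant, at 19.3 FPKM after B[a]P and 17.1 FPKM after corn oil.

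Genes of tryptophan breakdown, which yields the endogenous AHR ligand kynurenine and related acids, spanned a wide range of levels. Of 14 found, 7 reached 1 FPKM and 7 did not, among the last the genes of the entry enzymes Tdo2, at 0.0135 FPKM after B[a]P and 0.0319 FPKM after corn oil, and Ido1, at 0.0280 FPKM after B[a]P and 0.00880 FPKM after corn oil. The Tdo2 values came from at least 2 reads after B[a]P and 5 after corn oil, and those of Ido1 from at least 3 reads after B[a]P and 1 after corn oil. The 7 at 1 FPKM or more had a median log2 ratio of 0.02 and none reached 1.5-fold, beside 1.79% of all genes that did. Kyat3 (listed as Ccbl2), a kynurenine aminotransferase gene, was at 3.26 FPKM after B[a]P and 4.22 FPKM after corn oil, a ratio of 0.772 (0.676 to 0.881). The amine oxidase genes Maob and Maoa were at 18.3 FPKM after B[a]P and 15.8 FPKM after corn oil and 21.0 FPKM after B[a]P and 19.0 FPKM after corn oil. Got2, the mitochondrial aspartate aminotransferase gene and the most abundant, was at 109 FPKM after B[a]P and 100.2 FPKM after corn oil.

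Other reported AHR targets were more often lower than higher after B[a]P. Of 17 at 1 FPKM or more, 6 had a log2 ratio above 0 and 11 below, and the median was -0.04, beside 0.09 over all genes. None reached 1.5-fold on the scale of log2(FPKM + 1), beside 1.79% of all genes that did. Fos, the immediate early gene, was at 4.08 FPKM after B[a]P and 6.60 FPKM after corn oil. Its plain ratio of 0.619 (0.557 to 0.687) is past 1.5-fold, and its log2 ratio of FPKM + 1, -0.58, is just short of it. Hes1, a Notch target and repressor gene, was at 4.38 FPKM after B[a]P and 5.64 FPKM after corn oil, and Ugt1a6, which encodes a phenol-conjugating enzyme, was at 1.45 FPKM after B[a]P and 1.94 FPKM after corn oil (ratio 0.746, 0.643 to 0.865). Gsta1, a glutathione transferase gene and the most abundant, was at 34.7 FPKM after B[a]P and 35.3 FPKM after corn oil.

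Both genes past 1.5-fold with the pseudocount of 1 were in the list drawn up for B[a]P activation and clearance. Whether either acts on B[a]P in this tissue was not tested. Of the 17 genes of the list at 1 FPKM or more, 1 was higher and 1 lower, beside 1.79% of all genes in either direction. Their median log2 ratio was -0.07. Ephx2, the soluble epoxide hydrolase gene, was at 3.67 FPKM after B[a]P and 1.55 FPKM after corn oil, a ratio of 2.37 (2.07 to 2.73) from a smallest pair of 676 B[a]P and 302 control reads. Gsta4, whose enzyme conjugates lipid aldehydes, was at 11.9 FPKM after B[a]P and 21.5 FPKM after corn oil (0.510 to 0.604 around a ratio of 0.555). Gstm2, another glutathione transferase gene, was at 0.938 FPKM after B[a]P and 1.90 FPKM after corn oil, a plain ratio of 0.493 (0.35 to 0.687) that came just short of 1.5-fold on the log2(FPKM + 1) scale. Akr1a1, an aldehyde reductase gene and the most abundant, was at 203 FPKM after B[a]P and 190 FPKM after corn oil. Ephx1, the microsomal epoxide hydrolase gene that acts on B[a]P oxides between the CYP1 steps, was at 7.81 FPKM after B[a]P and 9.06 FPKM after corn oil (ratio 0.861, 0.800 to 0.927).

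**Figure D5:**
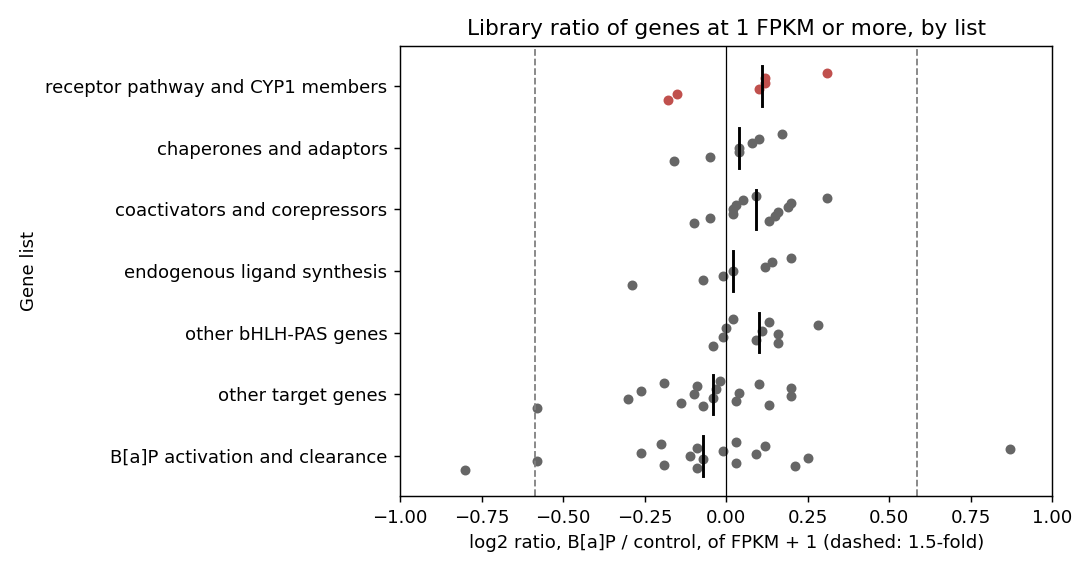
Log2 ratio of FPKM + 1, B[a]P over control (x axis), of the genes that reached 1 FPKM (points), by list (y axis), with the median as a black bar and 1.5-fold as dashed lines. The 6 members (red) run from -0.18 to 0.31, and Ephx2 at 0.87 and Gsta4 at -0.80 are the points beyond the dashed lines.

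The miRNA-seq libraries were read for 8 mature miRNAs tied to the pathway in other species. miR-132 and miR-212, made from 1 cluster, are induced through AHR in mouse T cells, miR-27b targets CYP1B1 in human cells, and miR-124 targets AHR in human neuroblastoma cells. Sequences are given, from RefSeq (GRCr8), for the pairs that share a seed (bases 2 to 8, in capitals), as 5′ to 3′ RNA. The seed AACAGUC is common to miR-132-3p (chr10:60522091-60522112, plus strand) and miR-212-3p (chr10:60521811-60521832, plus strand), and UCACAGU to miR-27b-3p (chr17:1819163-1819183, minus strand) and miR-27a-3p (chr19:40859614-40859634, minus strand).
miR-132-3p: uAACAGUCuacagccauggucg
miR-212-3p: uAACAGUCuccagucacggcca
miR-27b-3p: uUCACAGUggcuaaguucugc
miR-27a-3p: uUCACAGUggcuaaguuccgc

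All 8 were higher after B[a]P, as were 97.0% of the 332 miRNAs at 10 RPM (reads scaled to a fixed library total) or more, whose median ratio was 1.28. None of the 8 reached 1.5-fold on the scale of log2(RPM + 1), where 11.1% of the 332 did. miR-132-3p was at 481 RPM after B[a]P and 378 RPM after corn oil (6907 B[a]P and 6150 control reads, ratio 1.27, 1.23 to 1.32), and its cluster mate miR-212-3p at 66.7 RPM after B[a]P and 56.8 RPM after corn oil (958 B[a]P and 924 control reads, ratio 1.17, 1.07 to 1.29). Less the table's median, their log2 ratios were -0.01 and -0.13. The other arm, miR-212-5p, was at 241 RPM after B[a]P and 221 RPM after corn oil (ratio 1.09, 1.04 to 1.14). Its log2 ratio less the table's median was -0.24, the lowest of the 8. miR-27b-3p, the most abundant of the 8, was at 4759 RPM after B[a]P and 3705 RPM after corn oil, a log2 ratio equal to the table's median. miR-27a-3p, which shares its seed, was at 420.0 RPM after B[a]P and 294 RPM after corn oil (ratio 1.43, 1.38 to 1.49), 0.16 above the table's median and the farthest above it. miR-124-3p was at 2358 RPM after B[a]P and 1879 RPM after corn oil, -0.03 from the table's median.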

How the data were processed

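Hippocampal RNA was sequenced as RNA-seq and small RNA libraries, grouped by their titles. Per the submitters' processing notes, bcl2fastq was used and rn6 and rn5 were the builds, without a role for either. The aligner and counter are not given in the sources used here. Values for mRNA were deposited by the authors with no stated unit and were taken as FPKM from the values. The miRNA values were deposited as RPM, whole multiples of 1 step per library (14.4 and 16.3 M reads for B[a]P and control). The commonest ratio of values under 0.05 FPKM gave the relative depth (1.06, control over B[a]P), and the library total was the commonest one among 1082 genes with a RefSeq span under 6000 bases, shared by 62 of them; the next, shared by 30, was 0.5 times as large. Whether reads or read pairs were counted is not known. On simulated counts with whole reads and lengths, the smallest pair equalled the true reads for 81.2% to 86.1% of genes with 2 to 2000 reads in both libraries together. Above that it equalled them for 39%. It was at or below them for 100% and 98.7%, which follows from taking the smallest pair. A gene without any pair counted against these shares. Log2 ratios use a pseudocount of 1, which understates those of low genes, and a floor of 1 FPKM or 10 RPM in either library. Intervals of ratios are exact conditional binomial, at 95%. The members and lists were chosen with earlier results of these data known. Named from each list were the most abundant gene and up to 3 genes with the largest ratio at the floor or above, with any past 1.5-fold, and others were added for their role after their values were seen. Older names were matched through RefSeq (GRCr8). The RRBS tables were not used here, because no annotation of their build was at hand to place the genes, and no protein sequences were compared. Computation used Python 3.11.15, numpy 2.4.6, scipy 1.17.1 and pandas 2.3.3.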

Additional observations from a re-analysis of the deposited data

Results flagged for a closer look

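Arnt also has a line in the lncRNA table, which the comparisons did not use, with a value after B[a]P above that after corn oil. It was at 1.82 FPKM after B[a]P and 1.71 FPKM after corn oil on the scaling of that table, a ratio of 1.07 against 1.09 in the mRNA table. What the line counts was not given.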

How the results depend on the processing

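No paired analysis was possible because each condition had 1 library. None of the members above the floor passed 1.5-fold under a pseudocount of 0.1, scaling to the library median, the highest line per symbol, no floor or a floor of 5 FPKM. All 24 member log2 ratios under the first 3 of these moved by less than their counting interval. The highest line per symbol could not differ from the main values. With no floor, the pseudocount of 1 held Ahrr at a log2 ratio of -0.03 and Cyp1a1 at -0.01, although the plain ratio of Ahrr, 0.611, is past 1.5-fold. The count over all genes was 237, against 474 with a pseudocount of 0.1 and 100 at or above 5 FPKM; the count of pathway genes was 2, against 4, 4 and 1 with a pseudocount of 0.1, scaling and the higher floor. The genes added by the pseudocount of 0.1 were Fos and Gstm2. The members' median of 0.11 was 0.04 after scaling, 0.05 with no floor and -0.15 over the 3 members left at 5 FPKM, where fewer genes were counted. No symbol had more than 1 line. For the 8 miRNAs, removal of the floor left the values as they were, while dividing by the median ratio moved 8 of 24 values beyond their counting interval. Read numbers rest on the values' 6 digits and are the smallest pairs. In simulated tables no pair at or below the true reads was found for some genes of 2000 reads or more.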

Other observations

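Some pathway genes under 1 FPKM had counting intervals that leave out 1. They were Kmo, Hif3a, Npas4 and Arntl2, higher after B[a]P, and Aldh3a1, Lrat and Areg, lower. The share of all genes with such intervals was not computed, so their number is no result about the pathway. Kmo and Aldh3a1 are described here and were chosen after their values were seen. Kmo, which encodes the kynurenine monooxygenase of microglia, was at 0.0799 FPKM after B[a]P and 0.0122 FPKM after corn oil, from a smallest pair of 31 B[a]P and 5 control reads, a ratio of 6.57 (2.53 to 21.6). Microglia markers had a median log2 ratio of 0.11 and summed to 160.8 FPKM after B[a]P and 163.9 FPKM after corn oil. Aldh3a1, an aldehyde dehydrogenase gene and classical AHR target, was at 0.186 FPKM after B[a]P and 0.408 FPKM after corn oil, from a smallest pair of 28 B[a]P and 65 control reads, a ratio of 0.456 (0.282 to 0.721). Among the 6241 genes between 0.1 and 1 FPKM the central 95% of ratios was 0.359 to 3.05, which holds the ratio of Aldh3a1. Between 0.01 and 0.1 FPKM it was 0.177 to 5.83, which does not hold that of Kmo. It does not hold that of Arntl2 either, at 8.48 (1.14 to 376), from a smallest pair of 8 B[a]P reads and 1 control read. Areg, at 0.177, was at its lower end. None of these genes has a replicate check.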
